A study of Mus musculus with 24 samples.

Results

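The gene expression difference between cells lacking both Myc and Mlx and cells lacking Myc alone was examined in primary murine embryonic fibroblasts (MEFs). Double-knockout (DKO) MEFs were set against MycKO MEFs, each sequenced as 3 RNA libraries. A gene was taken when 3 or more of the 12 primary libraries reached 1 CPM (counts relative to library depth, scaled between libraries by the authors), which held for 13101 of the 41710 genes in the primary table. The cells, fibroblasts grown from pools of at least 6 embryos between days 14 and 16, carried floxed alleles of Myc, of Mlx or of both, and a Cre recombinase fused to the estrogen receptor under the ROSA26 promoter, which is active in nearly all cell types. MycKO cells had their Myc alleles excised, DKO cells had both Myc and Mlx excised, MlxKO cells had Mlx alone excised, and WT cells kept both genes. The excision agent was 500 nM 4-hydroxytamoxifen (4OHT), and both groups of this comparison are labelled as lacking Myc. The protocol in the labels gives this dose for every group, WT included. The study's methods describe exposure to 4OHT or to ethanol vehicle alone, and its WT cells had intact loci. WT cells may therefore have had the vehicle alone. In MlxKO against WT cells, exposure to 4OHT and Mlx loss may then not be told apart. The loxP sites lie around exons 2 and 3 in Myc and around exons 3 and 7 in Mlx. The study's methods describe the embryos as pooled per group, so between MycKO and DKO cells the genotype and the embryo pool cannot be told apart. Nothing in the labels ties the 3 libraries of a group to separate pools. The p-values therefore measure the spread between these libraries, which may be technical.

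Mlx is a small bHLH-ZIP transcription factor that has no sensor of its own. It dimerizes with MondoA (encoded by Mlxip) or ChREBP (encoded by Mlxipl), which respond to glucose phosphates and activate genes through carbohydrate response elements. Mlx also dimerizes with the repressors Mxd1, Mxd4 and Mnt, which can instead pair with Max, the obligate partner of Myc. The Mlx dimers and the Myc-Max dimers recognize related E-box letters, and for this reason the networks are held to share part of their targets. The best-known target of MondoA and Mlx in fibroblasts is Txnip, an arrestin that restrains glucose uptake, together with its relative Arrdc4.

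The letters upstream of these genes are shown first, since Txnip and Arrdc4 had the largest falls among the Mlx targets examined. The 250 bases before the annotated start are given 5′ to 3′ on the strand of the gene, on GRCm39 with the canonical GENCODE vM39 start. In Txnip, at chr3:96465017-96465266 on the plus strand, capitals mark a pair of E-box-like hexamers that are separated by 5 bases, as in the carbohydrate response element, the first base of which lies 79 bases before the start. In Arrdc4, at chr7:68399000-68399249 on the minus strand, capitals mark a single CACGTG E-box that begins 180 bases before the start. Neither form was found in the same window of Klf10 or Fasn, targets that were also called lower, whereas Ldha, which was called higher, had 2 E-boxes there and Acaca, which was not called, had 1.
Txnip: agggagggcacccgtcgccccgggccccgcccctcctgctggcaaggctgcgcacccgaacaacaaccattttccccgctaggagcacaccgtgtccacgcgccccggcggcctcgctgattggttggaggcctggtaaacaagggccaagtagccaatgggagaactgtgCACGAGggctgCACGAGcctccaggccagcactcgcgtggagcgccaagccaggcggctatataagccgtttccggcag
Arrdc4: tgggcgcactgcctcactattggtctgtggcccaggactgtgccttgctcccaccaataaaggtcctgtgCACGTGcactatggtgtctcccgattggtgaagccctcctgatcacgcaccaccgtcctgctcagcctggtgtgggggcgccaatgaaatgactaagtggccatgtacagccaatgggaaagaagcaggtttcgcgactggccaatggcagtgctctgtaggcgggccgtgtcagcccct

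The 6 libraries held between 16081463 and 20966163 reads on genes, so that 3 reads were worth 0.149 to 0.196 CPM, taken as the floor for counting error alone. Libraries are numbered within a group by the library numbers in the table. Sex-linked genes differed between the groups, the third DKO library held the most macrophage RNA of the 6, and the second MycKO library stood apart for several lists, ribosomal proteins among them, with values beside the results they touch. Across genes, which do not stand for replicates, the Pearson correlation of log2(CPM + 1) was between 0.990 and 0.996 within a group and between 0.976 and 0.983 across the groups. The test was limma on log2(CPM + 1), with the 4 primary groups in the same fit and Benjamini-Hochberg adjustment over all genes tested, and a gene was called when its adjusted p was under 0.05. On this scale the change of a gene with few reads is understated. Where limma called 0 members of a gene list in a direction in this comparison, edgeR and DESeq2 on the recovered reads also called 0 and no member had an unadjusted p under 0.05, unless a count is given. Cyp46a1, whose third-highest library had 1.00 CPM, lay just inside the filter, and Spin2c, at 0.998 CPM, lay just outside. A library of both groups reached 1 CPM for 12623 of the genes tested, while 230 genes reached it in DKO cells alone, 132 in MycKO cells alone and 116 in neither.

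Of the 13101 genes tested, 2818 were called (21.5%), of which 1383 were higher in DKO cells (10.6% of all genes tested) and 1435 were lower (11%). Most changes were small, with a median size of 0.48 on the log2 scale among called genes. A called change of at least 1 on the log2 scale was found for 336 genes, of which 199 were higher and 137 lower, and a change of at least 2 for 28. The median log2 fold change of all genes was -0.01. Libraries of the groups did not overlap for 4836 genes (36.9%).

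Mlx and Myc were examined first. Mlx (ENSMUSG00000017801, chr11:100978080-100983043 on the plus strand of GRCm39) had 21.1, 17.3 and 20.5 CPM in MycKO libraries and 11.8, 11.99 and 9.73 CPM in DKO libraries. All DKO libraries lay below all MycKO libraries (log2 fold change -0.76, standard error 0.112, adjusted p = 9.76e-05), yet 56.9% of the MycKO level remained in reads counted over the whole gene. Since a floxed gene can still give reads from exons outside the deleted part, the remaining reads do not measure how many alleles were excised. Mlx also fell in cells that keep Myc, from 23.7 ± 2.84 CPM (SD, n = 3) in WT cells to 13.5 ± 0.480 CPM in MlxKO cells, and the difference between both falls was 0.00 on the log2 scale with a standard error of 0.158. Myc (ENSMUSG00000022346, chr15:61857227-61862223 on the plus strand) had 25.8, 26.8 and 26.8 CPM in MycKO libraries and 21.6, 22.9 and 19.9 CPM in DKO libraries, against 93.9 ± 5.46 CPM (SD, n = 3) in WT cells. Myc was therefore low in both groups, and a further decrease in DKO cells passed the test (log2 fold change -0.29, standard error 0.0707, adjusted p = 0.00634).

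Of the 12 tested members of the extended network, Mlx and Myc fell and 2 rose. Mycl, a paralog of Myc, had 9.48, 8.31 and 10.4 CPM in MycKO libraries and 13.8, 13.7 and 13.02 CPM in DKO libraries, without overlap (log2 fold change 0.49, standard error 0.120, adjusted p = 0.00709). Mxi1, a repressor that pairs with Max, had 15.6, 16.4 and 14.3 CPM and 22.4, 20.3 and 19.8 CPM in the same order (log2 fold change 0.41, standard error 0.0891, adjusted p = 0.00307). The remaining 8 members tested were not called. Their log2 fold changes were -0.14 for Max, 0.17 for Mlxip, 0.01 for the repressor Mnt and 0.15 for the repressor Mga. They were 0.22 for Mxd1, -0.07 for Mxd3, 0.14 for Mxd4 and -0.37 for Mycn. Mlxipl did not pass the filter, with 0 reads in all MycKO libraries and 0.102, 0.317 and 0.0576 CPM in DKO libraries.

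The best-known targets of Mlx were lower in DKO than in MycKO cells, and others of the same list were higher. Of 15 tested members of a list of 17 targets attributed to the Mlx network, 4 were called lower and 3 higher, and the list had a median log2 fold change of -0.18 against -0.01 for all genes. Txnip (ENSMUSG00000038393, chr3:96465267-96469201) had 132, 146 and 140.1 CPM in MycKO libraries and 23.7, 26.1 and 23.6 CPM in DKO libraries. The groups were far apart, and 17.5% of the MycKO level was left (log2 fold change -2.46, standard error 0.0923, adjusted p = 1.43e-11). Arrdc4 (ENSMUSG00000042659, chr7:68386742-68398999 on the minus strand) had 23.5, 28.4 and 25.6 CPM and 7.87, 5.70 and 6.28 CPM, with 25.6% left (log2 fold change -1.82, standard error 0.136, adjusted p = 5.86e-08). Klf10, a zinc finger repressor induced by glucose, had 28.1, 28.9 and 23.4 CPM and 17.8, 15.8 and 15.5 CPM, again without overlap (log2 fold change -0.67, standard error 0.0983, adjusted p = 9.51e-05). Fasn, the fatty acid synthase, was the other member that fell (log2 fold change -0.25, adjusted p = 0.00817). Without the third DKO library the call for Fasn was lost.

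The members that rose act in glucose use. Pfkfb3, which makes the activator of phosphofructokinase, had 23.0, 26.9 and 22.02 CPM in MycKO libraries and 35.5, 39.9 and 35.0 CPM in DKO libraries (log2 fold change 0.60, standard error 0.0881, adjusted p = 0.000101). Hexokinase Hk2 had a log2 fold change of 0.57 at an adjusted p of 0.000104 and lactate dehydrogenase Ldha of 0.36 (adjusted p = 0.0021). The members not called were Khk at -0.41, Rgs16 at -0.26, Elovl6 at -0.23, Acaca at -0.18, Acly at -0.12, Tkfc at 0.03, Me1 at 0.05 and Acacb at 0.16 on the log2 scale. Pklr and Gpd1 did not pass the filter.

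Arrestins of the same family did not move together. Besides Txnip and Arrdc4, which fell, Arrdc3, which takes part in the traffic of adrenergic receptors, had 16.6, 19.6 and 14.1 CPM in MycKO libraries and 25.9, 26.9 and 27.9 CPM in DKO libraries. All DKO libraries lay above (log2 fold change 0.66, standard error 0.123, adjusted p = 0.000883). Arrdc1 at 0.02 and Arrdc2 at 0.14 were not called, and Arrdc5 did not pass the filter.

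**Figure D1:**
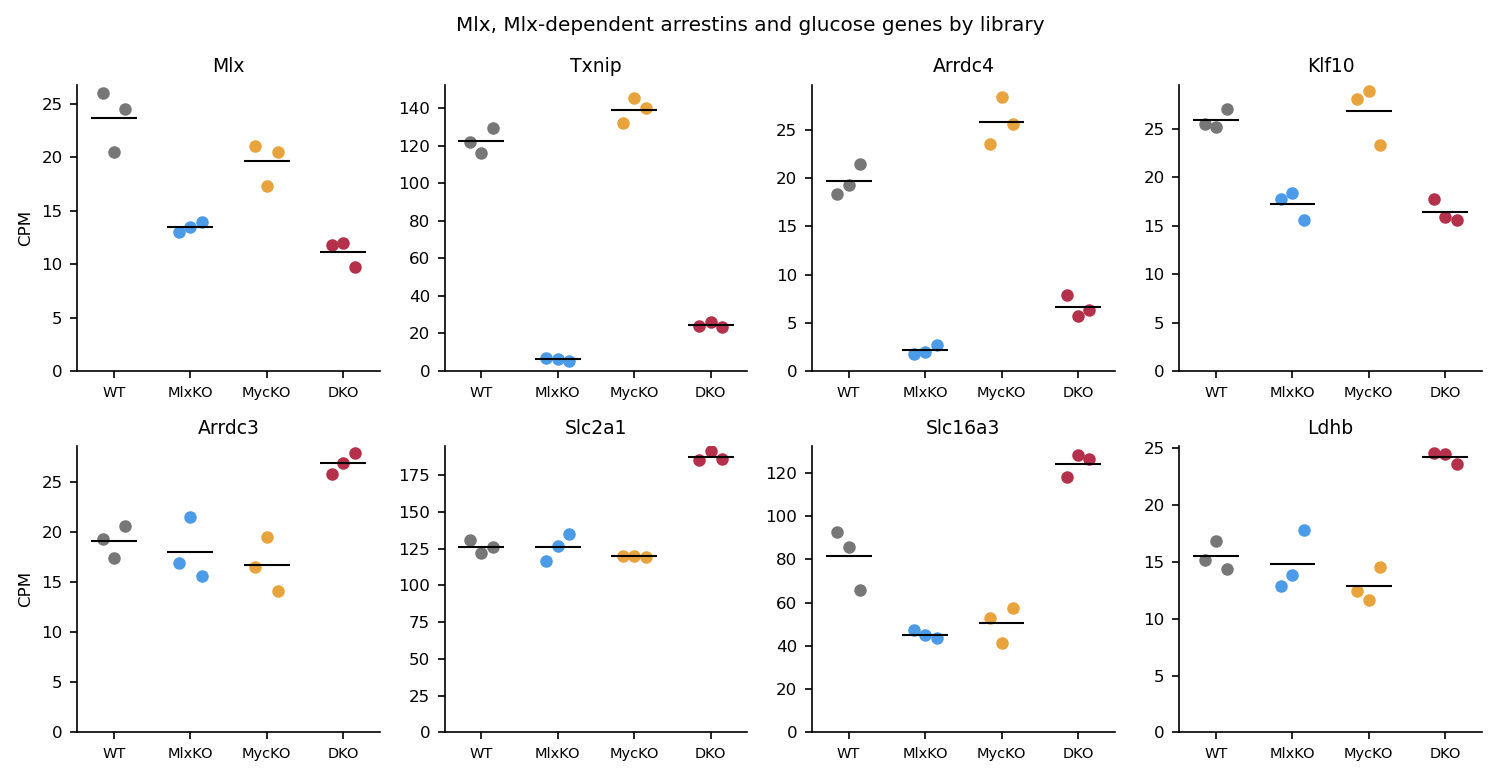
CPM per library of 8 genes in the 4 primary groups, with points for the 3 libraries of a group and a black line for their mean. Txnip lies between 132 and 146 CPM in MycKO libraries and between 23.6 and 26.1 CPM in DKO libraries, while Slc2a1, Slc16a3 and Ldhb are higher in every DKO library than in any MycKO library.

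Transcripts for glucose uptake and glycolysis rose together in DKO cells. Of 20 tested members of the list, 13 were called higher and 0 lower by limma, with 19 positive estimates, and the median log2 fold change was 0.29. The monocarboxylate exporter Slc16a3, which carries lactate out of the cell, had 52.8, 41.1 and 57.7 CPM in MycKO libraries and 118, 128 and 127 CPM in DKO libraries. Its mean was 2.46-fold higher in DKO cells (log2 fold change 1.29, standard error 0.118, adjusted p = 5.98e-07). The glucose transporter Slc2a1 had 119.9, 119.8 and 119 CPM and 185, 191 and 186 CPM (log2 fold change 0.64, standard error 0.0608, adjusted p = 8.73e-07). The groups were narrow and separate for this gene. Ldhb, a lactate dehydrogenase subunit, had 12.4, 11.6 and 14.5 CPM and 24.5, 24.5 and 23.6 CPM (log2 fold change 0.87, standard error 0.116, adjusted p = 3.79e-05). Pfkl, the liver form of phosphofructokinase, had 98.2, 61.5 and 100.97 CPM and 148, 144 and 163 CPM, with the second MycKO library well below the other two (log2 fold change 0.83, standard error 0.134, adjusted p = 0.000257). Summed over the list, that library had 6349 CPM, against 7163 and 7216 CPM in the other MycKO libraries. The sums were 8079.5, 8098 and 7870.1 CPM in DKO libraries and 9473, 9316 and 8068 CPM in WT libraries. For the sum, the DKO mean thus lay between those of MycKO and WT cells. Without the second MycKO library 11 members were called higher. Further called members were Tpi1 at 0.62, Pfkp at 0.37, Pgk1 at 0.30, Hk1 at 0.29, Slc16a1 at 0.25, Pgam1 at 0.24 and Gpi1 at 0.20, beside Hk2 and Ldha. Of the 7 members not called, Gapdh was at 0.20, Eno1 at 0.14, Pkm at 0.00, Slc2a3 at 0.28 and Eno2 at -0.09.

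The same list went the other way where Myc was kept. In MlxKO against WT cells, where 8.88% of all genes were called (3.75% higher and 5.14% lower), 9 members were called lower and 1 higher, with a median of -0.27. Whether the difference of DKO from MycKO cells was unlike that of MlxKO from WT cells was tested as an interaction in the same fit. The interaction was called for 1774 of the 13101 genes (13.5%), 7.47% as positive and 6.07% as negative. The study describes primary MycKO and DKO cells as growth-arrested and WT and MlxKO cells as proliferating. In the interaction, Myc status and growth state therefore cannot be told apart. If WT cells had the vehicle alone, exposure to 4OHT enters this term as well. For the glycolytic list 14 members had a positive interaction and 1 a negative one. Slc16a3 had 92.8, 85.9 and 66.1 CPM in WT libraries and 47.2, 45.0 and 43.5 CPM in MlxKO libraries, a fall where the cells without Myc showed a rise (interaction 2.12 on the log2 scale, adjusted p = 3.26e-07).

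Transcripts of cholesterol synthesis were lower in DKO than in MycKO cells and higher in MlxKO than in WT cells. Of 19 tested enzymes, 8 were called lower in DKO against MycKO cells and 0 higher by limma, with a median of -0.23 and 1 positive estimate. In MlxKO against WT cells 13 were called higher and 0 lower, with a median of 0.36. The interaction was negative for 15 of 19 and positive for 0. Sc5d, which acts late in the pathway, had 81.3, 90.3 and 80.4 CPM in MycKO libraries and 64.7, 61.5 and 57.8 CPM in DKO libraries (log2 fold change -0.45, standard error 0.0706, adjusted p = 0.000204). In cells with Myc it had 89.8, 83.3 and 95.2 CPM in WT and 111, 114 and 119 CPM in MlxKO libraries, so that it moved in opposite directions (interaction -0.81, adjusted p = 3.09e-05). Cyp51, Dhcr7 and Idi1 showed the same order, with log2 fold changes of -0.29, -0.33 and -0.35 in DKO against MycKO cells and 0.28, 0.32 and 0.50 in MlxKO against WT cells. The count of enzymes called lower was 3 without the third DKO library, and the calls for Dhcr7 and Idi1 were each lost in several of the fits that left out 1 library.

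Of the sterol regulators and uptake genes, 3 of 10 were called lower and 0 higher by limma (1 at an unadjusted p under 0.05). Abcg1, a cholesterol exporter, had 12.7, 11.6 and 11.4 CPM in MycKO libraries and 7.20, 5.92 and 7.49 CPM in DKO libraries (log2 fold change -0.71, standard error 0.145, adjusted p = 0.00178). Insig1, which retains the sterol sensor in the endoplasmic reticulum, had a log2 fold change of -0.32 at an adjusted p of 0.00391. Among 12 tested genes of fatty acid synthesis, Fasn and the desaturase Fads2 (-0.21, adjusted p = 0.0262) were called lower and 0 higher. These calls were 16.7% of the list, against 21.5% of all genes called in either direction and 11% called lower. The calls for Fasn and Fads2 were lost without the third DKO library, as was that for Cyp51.

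**Figure D2:**
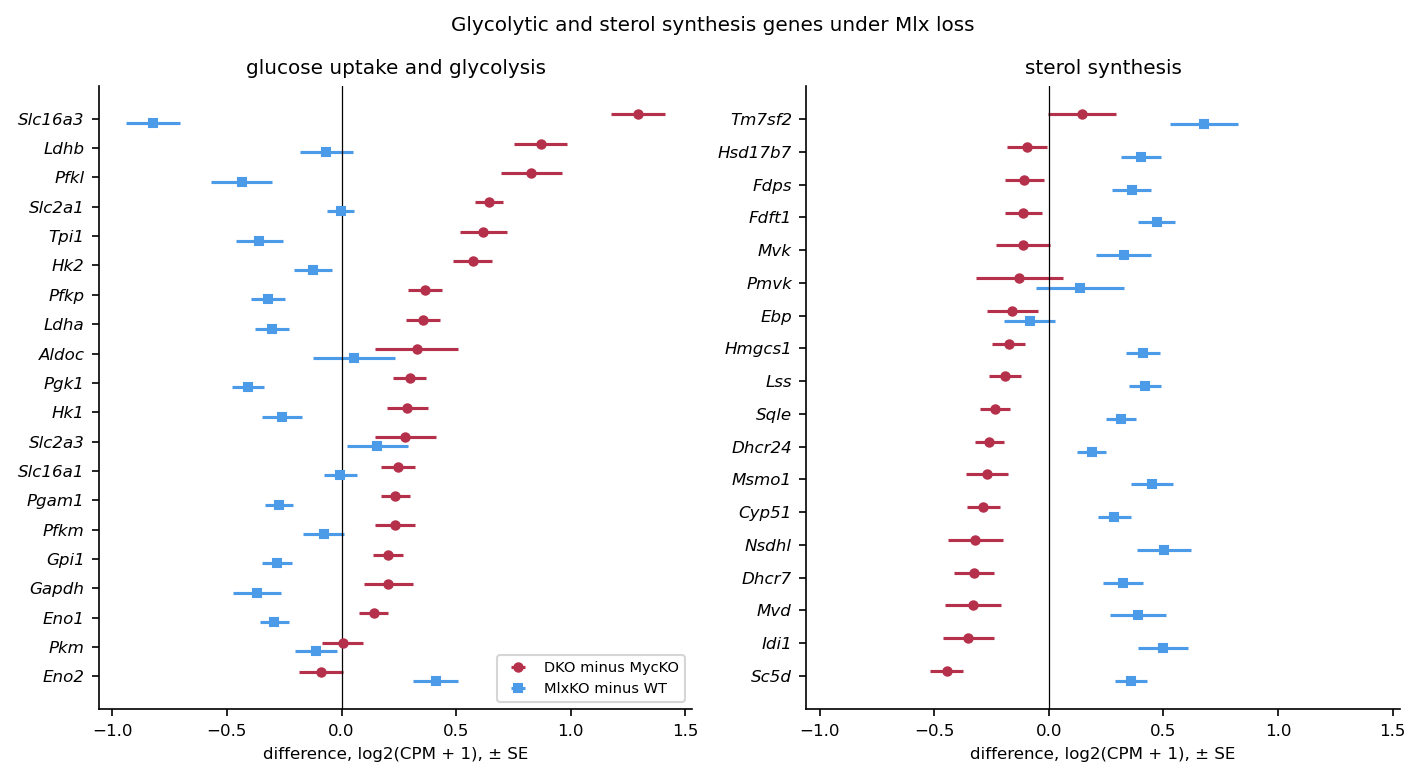
Difference in log2(CPM + 1) with its standard error for the tested genes of glucose uptake and glycolysis (left) and 18 of the 19 of sterol synthesis (right), in DKO minus MycKO cells (circles) and in MlxKO minus WT cells (squares). Of the glycolytic genes 19 of 20 are above 0 where Myc is absent, and of the sterol genes drawn 17 of 18 are below 0.

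Cell cycle transcripts were lower in DKO than in MycKO cells. Of 42 tested genes of G2/M and mitosis, 28 were called lower and 0 higher by limma, with a median of -0.33 and 1 positive estimate. Of 46 DNA replication genes 20 were called lower and 0 higher (median -0.28), and of 21 regulators of G1 and S phase 9 were called lower and 0 higher (median -0.23). Cdca8, a subunit of the chromosomal passenger complex, had 30.9, 33.2 and 32.1 CPM in MycKO libraries and 22.5, 22.5 and 19.4 CPM in DKO libraries (log2 fold change -0.56, standard error 0.0782, adjusted p = 5.87e-05). The spindle factor Tpx2 had 115, 133 and 114 CPM and 85.6, 83.9 and 81.3 CPM (log2 fold change -0.52, standard error 0.0644, adjusted p = 1.64e-05), and the groups did not overlap for either gene. Cyclin Ccnb1 at -0.54 and the kinetochore subunit Spc24 at -0.54 were also called. Rrm2, which makes deoxyribonucleotides, had 98.5, 108 and 97.3 CPM and 60.8, 58.3 and 55.6 CPM (log2 fold change -0.79, standard error 0.0701, adjusted p = 4.58e-07). The licensing factors Cdc6 at -0.68, Mcm2 at -0.61 and Cdt1 at -0.61 and the polymerase subunit Pola1 at -0.60 fell with it.

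Ccnd1, the cyclin that partners Cdk4 and Cdk6 in G1, showed the largest fall among the G1 and S phase regulators. It had 360.3, 389.6 and 384 CPM in MycKO libraries and 184, 176 and 195 CPM in DKO libraries, which left 49.0% of the MycKO mean (log2 fold change -1.03, standard error 0.0610, adjusted p = 6.70e-09). WT libraries had 289, 303 and 274 CPM, so that MycKO cells lay above WT cells and DKO cells below them. Ccnd2 had 954, 1006 and 932 CPM and 681, 658 and 671 CPM (log2 fold change -0.52, standard error 0.0733, adjusted p = 6.23e-05), and Cdk6 had a log2 fold change of -0.58 at an adjusted p of 0.00111. In MlxKO against WT cells 24 of the 42 mitotic genes were also called lower, and 0 of them had an interaction called by limma, while edgeR and DESeq2 each called 1 and 2 had an unadjusted p under 0.05. The summed mitotic level was 1839, 2194 and 1856 CPM in MycKO libraries, with the second well above the others, and 1561, 1562 and 1461 CPM in DKO libraries. Without the second MycKO library 26 mitotic genes were called lower. Without the third DKO library the mitotic count was 18 and that of G1 and S phase regulators was 5.

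Targets of p53, the transcription factor of the DNA damage response, were in part lower in DKO cells. Of 26 tested members 12 were called lower and 0 higher by limma (1 at an unadjusted p under 0.05), with a median of -0.24. Ccng1 had 571, 721 and 542 CPM in MycKO libraries and 397, 393 and 370.0 CPM in DKO libraries (log2 fold change -0.65, standard error 0.0895, adjusted p = 5.28e-05). Mdm2, the ubiquitin ligase that limits p53, had 186, 214 and 181 CPM and 138, 143 and 131 CPM (log2 fold change -0.49, standard error 0.0706, adjusted p = 8.69e-05). Both were separate between the groups. The cell cycle inhibitor Cdkn1a had 457, 422 and 447 CPM and 354, 339.8 and 351 CPM (log2 fold change -0.34, standard error 0.0558, adjusted p = 0.000283), levels that lay above the 301, 315 and 297 CPM of WT libraries. Ptprv at -1.50 and Perp at -1.01 had the largest falls of the list, both at low levels. Of the 26 members 10 had a negative interaction and 1 a positive one, and in MlxKO against WT cells 1 was called higher and 0 lower by limma, with 2 lower by DESeq2, 0 by edgeR and 3 at an unadjusted p under 0.05.

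The inhibitors of cyclin-dependent kinases did not share a direction. Cdkn2b had 71.7, 60.6 and 71.7 CPM in MycKO libraries and 46.4, 44.8 and 44.1 CPM in DKO libraries (log2 fold change -0.58, standard error 0.0858, adjusted p = 0.000111), while Cdkn1b had 45.5, 44.6 and 40.6 CPM and 59.3, 58.5 and 61.7 CPM (log2 fold change 0.45, standard error 0.0782, adjusted p = 0.000498). Of the 46 DNA damage and repair genes 7 were called lower and 0 higher by limma (2 at an unadjusted p under 0.05). These 7 were 15.2% of the list, against 21.5% of all genes called in either direction and 11% called lower. Examples were Fancb at -0.56, Brca1 at -0.44, Ung at -0.43 and Rad54l at -0.43. The count was 1 without the first DKO library and 4 without the second or the third. The call was lost without the third DKO library for Fancb and without the first for Brca1, and for Ung and Rad54l it was lost in 4 of the 6 fits that left out 1 library.

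Genes of growth metabolism were also lower. Of 34 ribosome biogenesis genes 21 were called lower and 0 higher by limma (median -0.27). Rrp12, a processing factor, had 26.5, 29.2 and 28.7 CPM in MycKO libraries and 17.4, 19.0 and 17.8 CPM in DKO libraries (log2 fold change -0.61, standard error 0.0878, adjusted p = 7.93e-05), and Dkc1, the pseudouridine synthase of ribosomal RNA, had a log2 fold change of -0.52 at an adjusted p of 0.000594. Of 13 enzymes of serine and one-carbon metabolism 7 were called lower and 0 higher by limma (median -0.23). Phgdh, which opens serine synthesis, had 288, 271 and 303 CPM and 188, 195 and 188 CPM (log2 fold change -0.59, standard error 0.0658, adjusted p = 5.37e-06), and Shmt1 had 7.37, 7.39 and 6.68 CPM and 3.88, 3.80 and 3.46 CPM (log2 fold change -0.79, standard error 0.104, adjusted p = 3.26e-05). The groups did not overlap for Phgdh or Shmt1. Of 14 genes of the ATF4 stress response 0 were called by limma, edgeR or DESeq2 and 2 had an unadjusted p under 0.05, with Atf5 at -0.07 and Slc7a5 at 0.05. Of 15 NRF2 antioxidant genes Txnrd1 was the 1 called by limma, with a log2 fold change of -0.26 at an adjusted p of 0.00435, while edgeR and DESeq2 each called 2 lower. The summed level of that list was 3153 CPM in the second MycKO library, against 3954 and 3915 CPM in the other MycKO libraries and 3173, 3129 and 3261 CPM in DKO libraries. Without the second MycKO library 3 were called lower, and without the second DKO library 2 were.

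For the ribosomal proteins and the respiratory chain the count depended on the second MycKO library. Of 79 cytosolic ribosomal protein genes 7 were called lower, but 50 were called lower without that library, 2 or 3 without the first or the third MycKO or the first or the second DKO library, and 14 with DESeq2. Its summed CPM of the list was 23683, against 28751 and 29137 in the other MycKO libraries, and DKO libraries had 24261, 24265 and 24860.2 CPM. Of 78 mitochondrial ribosomal protein genes 3 were called lower and 15 without that library, and of 75 genes of the respiratory chain and ATP synthase 2 were called lower and 32 without it. Without the first or the third MycKO or the first DKO library the mitochondrial ribosomal count and the respiratory chain count were each 1. Of these lists 0 genes were called higher by limma, while edgeR and DESeq2 each called 1 gene of the respiratory chain, and 1 had an unadjusted p under 0.05. The part of that library in these differences was not tested.

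**Figure D3:**
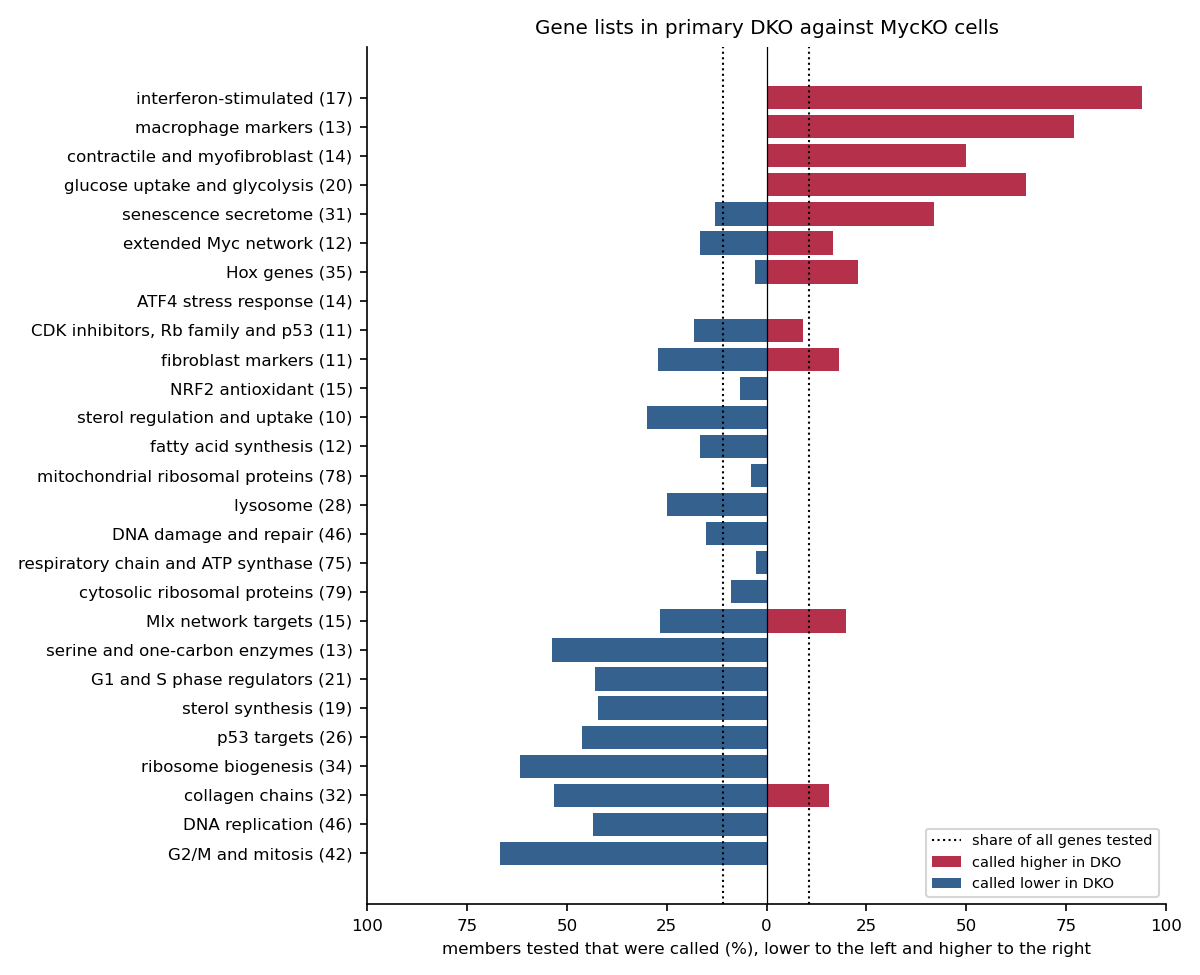
Percentage of the tested members of each gene list (number tested in parentheses) that was called higher (right) or lower (left) in primary DKO against MycKO cells, for lists with at least 10 tested members, with the share of all genes tested as dotted lines. Interferon-stimulated genes, macrophage markers and glycolytic genes lie to the right, and mitotic, replication and ribosome biogenesis genes lie to the left.

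Interferon-stimulated genes rose together in DKO cells. Of 17 tested members 16 were called higher and 0 lower by limma, with a median of 0.92. Ifi44 had 5.82, 7.85 and 6.18 CPM in MycKO libraries and 30.1, 29.0 and 30.5 CPM in DKO libraries (log2 fold change 2.03, standard error 0.109, adjusted p = 2.17e-09). Irf7, the transcription factor that amplifies the interferon response, had 8.59, 5.89 and 9.27 CPM and 26.5, 29.5 and 35.1 CPM (log2 fold change 1.83, standard error 0.160, adjusted p = 3.72e-07). Usp18, which dampens interferon signalling, had 6.93, 8.76 and 7.77 CPM and 26.3, 27.7 and 29.2 CPM (log2 fold change 1.71, standard error 0.101, adjusted p = 6.70e-09). The groups did not overlap for these genes. Ifit1 had a log2 fold change of 1.36, Isg15 of 1.31 and Oas1a of 1.25. The chemokine Cxcl10 at 0.24 was the member not called, and Mx1 did not pass the filter. Summed over the list, MycKO libraries had 377, 379 and 405 CPM, DKO libraries 693, 714 and 762 CPM and WT libraries 1001, 826 and 857 CPM. DKO cells thus lay between MycKO and WT cells.

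Macrophage markers moved with these genes. All 13 markers were tested, 10 were called higher and 0 lower by limma, and the median was 0.91. Their summed level was 91.7, 60.4 and 69.1 CPM in MycKO libraries and 135, 122 and 275 CPM in DKO libraries. The third DKO library stood well above the other DKO libraries, and WT libraries were higher still at 692, 551 and 351 CPM. Cd14, a receptor for lipopolysaccharide, had 3.38, 1.83 and 2.29 CPM and 7.72, 9.03 and 11.7 CPM (log2 fold change 1.59, standard error 0.261, adjusted p = 0.000293). Lyz2, which encodes lysozyme, had 47.1, 28.5 and 33.2 CPM and 66.7, 57.1 and 142 CPM (log2 fold change 1.18, standard error 0.276, adjusted p = 0.00532). No marker of the list was at 0 in these libraries. Without the third DKO library 6 of the markers and 15 of the interferon-stimulated genes were called higher, and with limma's robust prior, under which the call for Lyz2 was lost, 5 of the markers were. In bulk RNA, more cells of a type and more RNA per cell cannot be told apart, and the part of macrophage RNA in the interferon-stimulated genes was not tested.

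The sex-linked genes differed between the groups as well. Xist, which is transcribed from the inactive X chromosome of female cells, had 103, 146 and 102 CPM in MycKO libraries and 545, 529 and 544 CPM in DKO libraries. The Y-linked Ddx3y had 73.4, 84.8 and 67.3 CPM and 10.5, 10.9 and 10.1 CPM, and Eif2s3y had 33.8, 33.7 and 29.7 CPM and 3.78, 4.59 and 3.97 CPM. Kdm5d at -2.47 and Uty at -2.44 on the log2 scale fell with them. All DKO libraries lay above the MycKO libraries for Xist and below them for the Y-linked genes. The sex makeup of the embryo pools and the genotype cannot be told apart here. Of 436 tested X-linked genes 56 were called higher and 40 lower (22.0%), with a median of 0.03, against 21.5% of 12660 genes on other chromosomes. Genes that escape X inactivation, named after their values were seen, were Kdm5c at 0.37 (adjusted p = 0.00047), Kdm6a at 0.39 (adjusted p = 0.00642), Eif2s3x at 0.22 (adjusted p = 0.0337) and Ddx3x at 0.18 (adjusted p = 0.0669). With the genes of the X and Y chromosomes left out, 2721 genes were called.

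**Figure D4:**
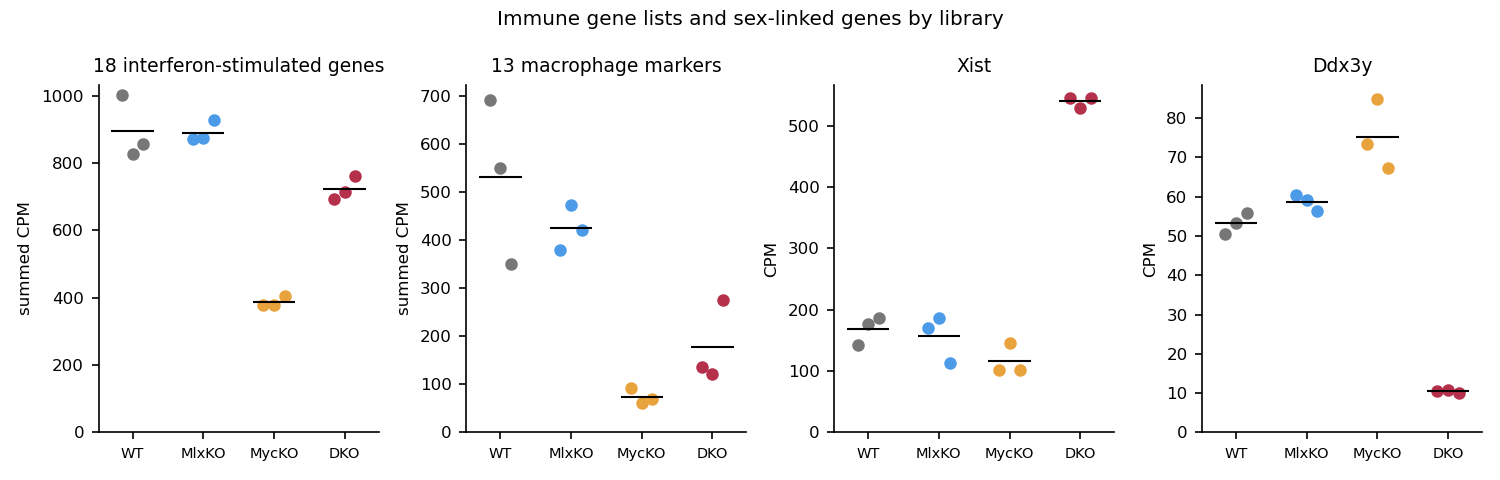
Summed CPM of 18 interferon-stimulated genes and 13 macrophage markers, and CPM of Xist and Ddx3y, in the 4 primary groups, with points for libraries and a black line for the mean of 3. The third DKO library has 275 CPM of macrophage markers against 122 and 135 in the others, and DKO libraries stand apart from all other groups for Xist and Ddx3y.

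The largest rises included genes of the acute phase and of the matrix. Cfb, complement factor B, had 1.88, 1.57 and 2.69 CPM in MycKO libraries and 28.0, 22.2 and 24.1 CPM in DKO libraries (log2 fold change 3.09, standard error 0.172, adjusted p = 3.28e-09). Its value is uncertain, since 57.3% of the 50-base stretches of its transcripts are shared with the annotated gene Gm20547. Gdf10, a secreted factor of the BMP family, had 13.6, 11.3 and 14.1 CPM and 87.8, 85.6 and 91.6 CPM (log2 fold change 2.68, standard error 0.0907, adjusted p = 4.55e-12). The mean of Gdf10 was 6.80-fold higher, with narrow groups. The acute-phase genes Saa3 and Hp (haptoglobin) had 7.51, 7.08 and 12.2 CPM and 11.3, 10.7 and 13.4 CPM in DKO libraries. In MycKO libraries they had 1.497, 0.262 and 0.448 CPM and 1.44, 1.11 and 1.05 CPM, and Saa3 was below 1 CPM in 2 of them. The log2 fold changes were 2.55 for Saa3 (adjusted p = 6.85e-07) and 2.54 for Hp (adjusted p = 1.54e-08). The complement component C3 at 1.42 and the siderophore-binding Lcn2 at 1.78, both named after their values were seen, rose with them.

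Other large rises were the chemokine Ccl5 at 2.20, the amine oxidase Aoc3 at 2.13 and the interferon-inducible Ifi27l2a at 2.10 on the log2 scale. The matrix glycoprotein Thbs4 had 6.49, 5.95 and 7.12 CPM in MycKO libraries and 30.9, 27.5 and 34.3 CPM in DKO libraries (log2 fold change 2.08, standard error 0.121, adjusted p = 5.27e-09). Comp, a thrombospondin of cartilage and tendon, had 0.832, 1.504 and 0.548 CPM and 7.05, 7.45 and 6.85 CPM (log2 fold change 2.08, standard error 0.172, adjusted p = 1.87e-07). WT libraries had 2.26, 2.23 and 2.16 CPM of Thbs4 and 1.30, 1.90 and 1.75 CPM of Comp, below the DKO libraries for both genes.

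Among the largest falls, Syt13, a synaptotagmin of vesicle traffic, had 216, 192 and 227 CPM in MycKO libraries and 26.5, 23.3 and 24.8 CPM in DKO libraries (log2 fold change -3.04, standard error 0.0841, adjusted p = 5.09e-13). WT libraries had 49.4, 48.8 and 56.3 CPM, so that MycKO libraries stood above WT and DKO libraries below. P2rx3, an ATP-gated channel of sensory neurons, had 12.8, 10.01 and 11.6 CPM and 0.562, 0.739 and 1.04 CPM (log2 fold change -2.81, standard error 0.159, adjusted p = 3.85e-09). Reg1 had 11.3, 10.5 and 9.07 CPM and 0.869, 0.739 and 0.979 CPM (log2 fold change -2.60, standard error 0.217, adjusted p = 2.07e-07), and Prl3a1, a member of the prolactin family, had 6.65, 9.48 and 6.33 CPM and 0.511, 1.003 and 0.518 CPM (log2 fold change -2.33, standard error 0.249, adjusted p = 3.51e-06). The remaining large falls were Txnip and the Y-linked genes.

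The largest fall by fold was that of Kpna2, and it is uncertain. Kpna2, an importin that carries proteins into the nucleus, had 155, 205 and 157 CPM in MycKO libraries and 2.15, 1.53 and 2.71 CPM in DKO libraries. The near-identical Gm10184, named after its values were seen, had 0.832, 0.458 and 2.04 CPM and 138, 146 and 128 CPM, which is the opposite order. Of the 50-base stretches of Gm10184 94.1% are also in Kpna2 transcripts, and of those of Kpna2 44.0% are in Gm10184, so that many of their reads cannot be told apart. The sum of both was 155, 206 and 159 CPM in MycKO libraries and 140.3, 147 and 131 CPM in DKO libraries, a log2 ratio of the means of -0.32. WT and MlxKO libraries were like DKO libraries in this respect, with Kpna2 at 1.92, 2.23 and 2.63 CPM and 1.01, 1.55 and 2.88 CPM.

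Secreted factors, matrix and contractile genes showed mixed lists. Of 31 tested genes of the senescence secretome 13 were called higher and 4 lower, with a median of 0.19. The chemokine Cxcl5 had 15.1, 16.7 and 14.8 CPM in MycKO libraries and 42.6, 47.3 and 49.3 CPM in DKO libraries (log2 fold change 1.52, standard error 0.126, adjusted p = 1.92e-07). Cxcl12, a chemokine of stromal cells, had 258, 243 and 249.5 CPM and 522, 503 and 504 CPM (log2 fold change 1.02, standard error 0.0797, adjusted p = 9.42e-08). Binding proteins of insulin-like growth factors split, since Igfbp4 had 254, 206 and 255 CPM and 481, 468 and 545 CPM (log2 fold change 1.06, standard error 0.0859, adjusted p = 1.45e-07) and Igfbp5 had 557, 552 and 546 CPM and 288, 279 and 305 CPM (log2 fold change -0.92, standard error 0.0760, adjusted p = 1.79e-07). The protease Mmp3 at 0.76 and the cytokine Il6 at 0.60 were called higher, and the chemokines Ccl2 at -0.77 and Ccl7 at -0.82 and the stress factor Gdf15 at -0.47 were called lower.

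Of 32 tested collagen chains 17 were called lower and 5 higher, with a median of -0.27. Col7a1, which forms anchoring fibrils, had 242, 205 and 254 CPM in MycKO libraries and 79.4, 82.3 and 91.1 CPM in DKO libraries (log2 fold change -1.46, standard error 0.0827, adjusted p = 3.85e-09). Col15a1 at -1.15 and the low Col25a1 at -1.81 fell with it, whereas Col2a1, the collagen of cartilage, had 37.6, 47.0 and 39.4 CPM and 108, 110.5 and 99.98 CPM (log2 fold change 1.34, standard error 0.0952, adjusted p = 3.45e-08). Of 14 contractile genes 7 were called higher and 0 lower by limma, with 1 lower by DESeq2 and 0 by edgeR (median 0.30, 1 lower at an unadjusted p under 0.05). Des, the intermediate filament of muscle, had 32.5, 27.9 and 31.8 CPM and 76.8, 83.2 and 77.2 CPM (log2 fold change 1.34, standard error 0.0944, adjusted p = 3.34e-08), and the smooth muscle genes Myh11 at 0.74, Cnn1 at 0.60 and Lmod1 at 0.40 rose with it. The smooth muscle actin Acta2 at 0.00 and Tagln at -0.03 were not called.

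Of 35 tested Hox genes, which set position along the body axis, 8 were called higher and Hoxc8 lower (-0.33). These calls were 25.7% of the list, against 21.5% of all genes, and the list had a median of 0.06. With genes under a mean of 5 CPM left out, 3 were called higher, and without the first or the second DKO library 0 were called lower by limma, against 1 with edgeR and with DESeq2 in all libraries. Hoxa5 had 3.60, 4.06 and 4.63 CPM in MycKO libraries and 8.33, 7.18 and 8.75 CPM in DKO libraries (log2 fold change 0.84, standard error 0.134, adjusted p = 0.000241), and Hoxa3 at 0.90, Hoxc12 at 0.88 and Hoxa7 at 0.67 rose likewise. Of 28 lysosomal genes 7 were called lower and 0 higher by limma (median -0.11). These 7 were 25% of the list, against 21.5% of all genes called in either direction and 11% called lower. In the higher direction edgeR and DESeq2 each called 1, and 1 had an unadjusted p under 0.05. Without the second MycKO library 14 were called lower, and without the third DKO library 4 were. Ctsk, a protease that degrades collagen, had 176, 135 and 168 CPM and 95.1, 93.2 and 98.0 CPM (log2 fold change -0.73, standard error 0.0871, adjusted p = 1.19e-05). The subunits of the proton pump Atp6v1a at -0.38 and Atp6v0d1 at -0.35 fell by less.

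Markers of fibroblasts, the labelled cell type, were abundant in every library. All 11 were tested, 2 were called higher and 3 lower, and the summed level was between 55555 and 57925 CPM in MycKO and between 57850 and 58805 CPM in DKO libraries. Lum (0.93) and Dcn (0.19) rose, and S100a4 (-1.30), Thy1 (-0.50) and Vim (-0.40) fell. Of 6 endothelial markers 2 passed the filter, and Kdr, the VEGF receptor, had 3.94, 6.15 and 5.28 CPM in MycKO libraries and 2.81, 3.33 and 2.71 CPM in DKO libraries (log2 fold change -0.62, standard error 0.145, adjusted p = 0.00517). Of 6 epithelial markers 3 passed and Krt18 was called higher (0.66, lost without the first MycKO library), while edgeR and DESeq2 also called 1 lower, and of 7 skeletal muscle markers Acta1 alone passed and was not called (-0.13). Of 10 cartilage and bone markers 6 passed the filter, with Col2a1 and Spp1 (0.44) higher and Col10a1 (-1.01), Acan (-0.47) and Sox9 (-0.29) lower. Of 7 adipocyte markers 5 passed, with Cd36 higher (1.52) and Lpl lower (-0.79). Of 6 neural and glial markers 5 passed, and Sox10 (-0.77) and Tubb3 (-0.43) were among those called lower.

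The difference of DKO from MycKO cells was next set beside that of MlxKO from WT cells, both of which keep Myc. The comparison of MlxKO with WT cells shares no library with that of DKO with MycKO cells, and 1164 of the 13101 genes (8.88%) were called in it. Of the 2818 genes called in DKO against MycKO cells, 557 were also called in MlxKO against WT cells, which is 19.8% of the former and 47.9% of the latter. Of these, 342 moved in the same direction and 215 in the opposite direction. The interaction was called for 1303 of the 2818 genes (46.2%).

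Txnip was among the genes with the same direction and a called interaction. In WT libraries it had 122, 116 and 129 CPM and in MlxKO libraries 6.88, 6.40 and 5.03 CPM, a log2 fold change of -4.13 at an adjusted p of 2.58e-14 against -2.46 in cells without Myc. The interaction was 1.66 (standard error 0.130, adjusted p = 3.21e-07), so that the fall of Txnip was smaller on this scale where Myc was absent. Arrdc4 had 18.3, 19.3 and 21.5 CPM in WT and 1.76, 1.97 and 2.72 CPM in MlxKO libraries, with an interaction of 0.90 (adjusted p = 0.00384). For Klf10, at -0.56 with Myc and -0.67 without, the interaction was -0.11 with a standard error of 0.139 (adjusted p = 0.684).

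Among genes with a symbol other than that of a predicted gene, the largest positive interactions called were those of Saa3, Pgr and Hp, and the most negative were those of Kpna2, P2rx3 and Eif2s3y. Pgr, the progesterone receptor, had 11.7, 13.3 and 12.04 CPM in WT libraries and 0.426, 1.077 and 0.462 CPM in MlxKO libraries. It was already low in MycKO libraries, at 0.111, 0.262 and 0.548 CPM, and DKO libraries had 0.511, 1.53 and 0.749 CPM (log2 fold change 0.54, adjusted p = 0.0726). Limma did not call this difference, whereas edgeR (adjusted p = 0.0479) and DESeq2 (adjusted p = 0.00802) called it as a rise. The interaction was 3.57. For the Y-linked Eif2s3y, the sex makeup of the pools and the genotype cannot be told apart. Des moved in both, as it fell from 81.5 ± 4.50 CPM to 36.8 ± 5.55 CPM (SD, n = 3) in cells with Myc and rose in cells without (interaction 2.47, adjusted p = 3.99e-09).

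**Figure D5:**
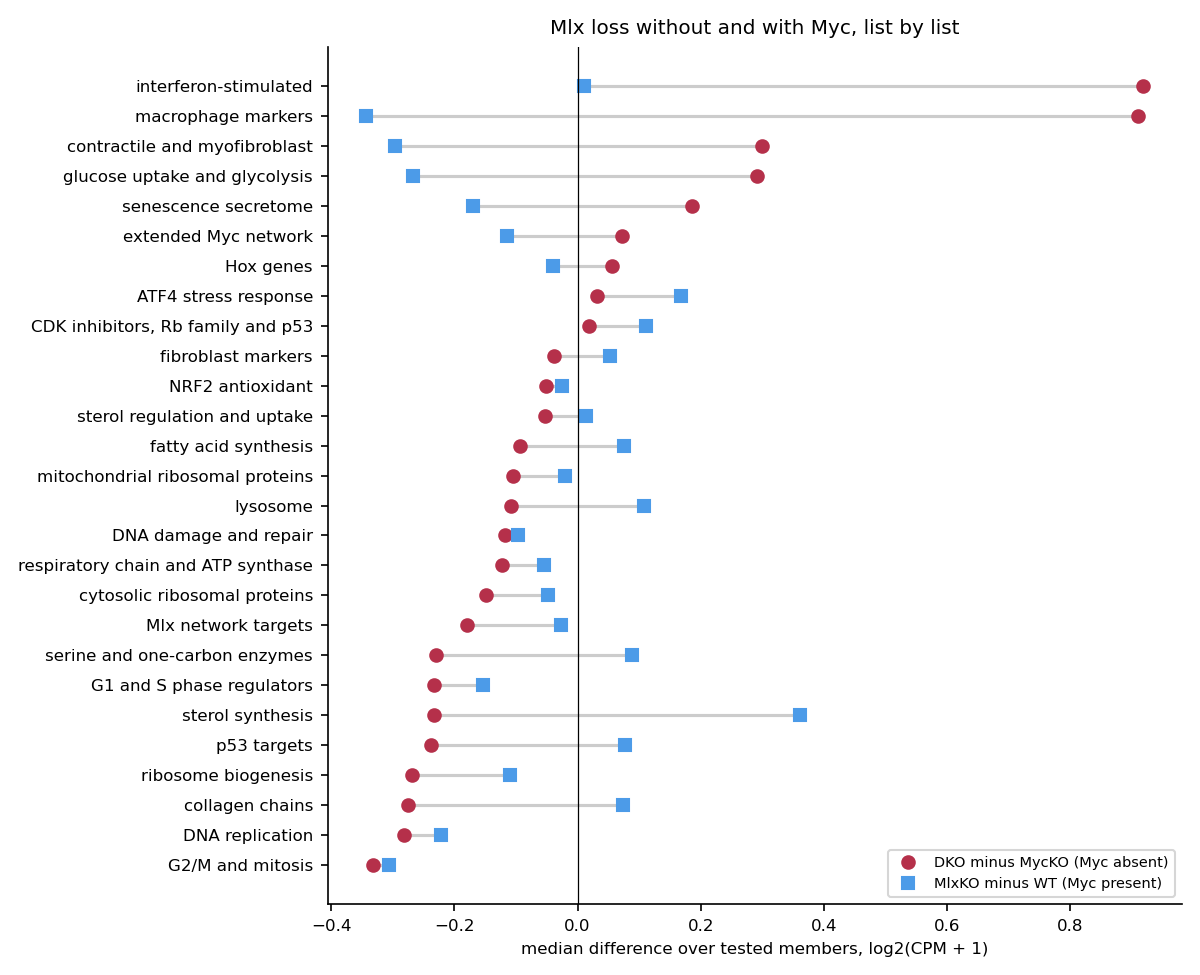
Median difference in log2(CPM + 1) over the tested members of each gene list, in DKO minus MycKO cells (circles) and in MlxKO minus WT cells (squares), joined by a line. The circle and the square lie on opposite sides of 0 for sterol synthesis (-0.23 and 0.36) and for glucose uptake and glycolysis (0.29 and -0.27), and close together for G2/M and mitosis (-0.33 and -0.31).

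DKO and MycKO cells were also compared after immortalization with SV40 T-antigen, a viral protein that binds p53 and the Rb family. The immortalized table was fitted separately and was not tested against the primary table. The study reports that most immortalized MycKO cells became tetraploid or pseudo-tetraploid (with extra chromosome sets), while DKO cells stayed euploid. In immortalized cells the ploidy and the genotype therefore cannot be told apart. The sex-linked genes differed there too, with 1 of 5 called higher and 4 lower, among them Eif2s3y at -2.74 (adjusted p = 0.00805). Kpna2 at -5.96 and Gm10184 at 6.21 also kept the opposite order seen in primary cells. Differences between the embryo pools and the genotype thus cannot be told apart in immortalized cells either. Of 12880 genes tested there, 3788 were called (29.4%), of which 1909 were higher (14.8%) and 1879 lower (14.6%). Of the 2818 genes called in primary cells 2582 were tested, and 1100 were also called, which is 42.6% of the former and 29.0% of the 3788. Of these, 751 had the same direction and 349 the opposite. Txnip had 38.98 ± 2.13 CPM (SD, n = 3) in immortalized MycKO cells and 1.16 ± 0.423 CPM in immortalized DKO cells (log2 fold change -4.23, adjusted p = 3.50e-07). Arrdc4 was at -1.91 (adjusted p = 0.000163), Arrdc3 at 1.68 (adjusted p = 1.68e-05) and Klf10 at -0.18 (adjusted p = 0.249) there, the last without a call.

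Other groups are given side by side. Of 20 glycolytic genes 2 were called higher and 4 lower in immortalized cells, and Slc16a3 was at -0.90 (adjusted p = 0.0129), a fall. Of 42 mitotic genes 2 were called higher and 1 lower, and of 18 interferon-stimulated genes 0 were called by limma or DESeq2, with 1 higher by edgeR and 1 at an unadjusted p under 0.05. Of 19 sterol synthesis enzymes 6 were called lower and 0 higher by limma, edgeR and DESeq2 (1 higher at an unadjusted p under 0.05), including Sc5d at -0.69. Mycl was at -3.28 (adjusted p = 9.05e-06) there. Syt13 had 0 reads in all immortalized DKO libraries against 19.1 ± 1.74 CPM in MycKO cells, and Col7a1 was at -2.72. Thbs4 at 2.91 and Comp at 3.67 were called higher in immortalized cells too.

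DKO against MycKO in both tables and primary MlxKO against WT each set cells without Mlx against cells with it. Of the genes tested, 21.5% were called in primary DKO against MycKO, 8.88% in primary MlxKO against WT and 29.4% in immortalized DKO against MycKO cells. Of the 13101 genes tested in primary cells, 150 were called with the same direction in all 3 comparisons, of which 76 were higher and 74 lower. Among those that fell were Txnip, Arrdc4, Syt13 and Mlx. These genes also included Hmga2, Inhba and Cd44, which were named after their values were seen. Since the immortalized cells derive from the same MEF lines, the tables do not come from separate embryos.

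The letters CACGTG were searched in the window from 250 bases before to 50 after the start of the 12624 tested protein-coding genes, where they were found in 9.97%. This E-box reads the same on both strands. They were found in 11.7% of 1410 genes called lower and in 6.37% of 1351 genes called higher. Among genes called with a change of at least 0.5 on the log2 scale, they were found in 8.66% of 543 lower and in 5.12% of 742 higher genes, so that the share in lower genes was above that of all genes without this limit and below it with the limit. The paired letters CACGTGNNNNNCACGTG were found in 0 of the windows. A relaxed form, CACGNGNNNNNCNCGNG, searched on both strands, was found in 70 windows (0.554%), of which 14 belonged to genes called lower and 6 to genes called higher. The strict form is a subset of the relaxed form. Txnip, shown above, had the largest fall among the 14, followed by Peli2, a ubiquitin ligase, and the scaffold Akap12. A match is a description of letters in this window and not a bound site.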

How the data were processed

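Poly(A) RNA from 3 samples of each group was sequenced on Illumina instruments after NEBNext Ultra Directional library preparation. Per the labels, the authors processed reads with CLC Genomics Workbench on GRCm39. The values the authors deposited are a normalized signal per gene, CPM scaled between libraries, whose sums ran from 950106 to 1051865, and whole reads were recovered from them (tolerance 0.01). Genes that reached 1 CPM in 3 or more of 12 libraries were kept. All 12 primary libraries entered 1 limma fit (version 3.58.1, R 4.3.3, trend on mean expression) on log2(CPM + 1), with Benjamini-Hochberg adjustment, and the immortalized table was fitted separately. Alternatives used edgeR 4.0.16 and DESeq2 1.42.0 on recovered reads. The scripts were tested on simulated data. The unit had been expected to be CPM, and the test was the same. Motifs were searched in GRCm39 at the canonical GENCODE vM39 starts of the 12624 tested protein-coding genes. A place in that annotation was found for 41181 of 41710 genes.

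Named genes were the members of the extended Myc network, the 10 largest rises and 10 largest falls that were called without overlap between libraries, up to 4 called members with the largest change in each list (or the 2 most abundant members where none was called), and the 3 most positive and 3 most negative called interactions, predicted genes left out of the rankings. Further list members are given with their list, and some members that enter the counts are not reported here by name. The comparison, members and lists were chosen with earlier results of these data known. MycKO libraries also enter other comparisons of the series, which were not used here.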

Additional observations from a re-analysis of the deposited data

Results flagged for a closer look

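The difference of DKO from MycKO cells was unlike that of MlxKO from WT cells for 1774 genes by the interaction term (limma, Benjamini-Hochberg adjusted p under 0.05), and the named genes among them are given as values of that term on the log2 scale. It was 3.61 for Saa3, 3.57 for Pgr, 3.42 for Hp and 3.0 for Gdf10. It was -5.54 for Kpna2, whose reads are shared with a near-identical gene, -3.16 for P2rx3 and -3.02 for Eif2s3y. Eif2s3y is Y-linked, and for it the sex makeup of the embryo pools and the genotype cannot be told apart.

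Among Mlx targets and arrestins it was 1.66 for Txnip, 0.90 for Arrdc4, 0.85 for Pfkfb3, 0.75 for Arrdc3, 0.70 for Hk2 and 0.66 for Ldha. Among called genes with opposite directions it was 2.12 for Slc16a3 and 1.21 for Mycl. For the sterol genes it was -0.81 for Sc5d, -0.85 for Idi1, -0.65 for Dhcr7, -0.57 for Cyp51 and -0.61 for Insig1. It was -1.10 for Cdkn2b, -0.69 for Psph, which makes serine, -1.04 for the mitochondrial ribosomal gene Mrps6, -0.57 for Atp6v1a and -0.56 for Atp6v0d1. Among secreted, matrix and contractile genes it was 1.29 for Cxcl12, -1.29 for Igfbp5, -2.34 for Col25a1, 2.47 for Des, 1.02 for Cnn1 and 0.70 for Lmod1. It was 2.65 for Krt18 and -1.20 for Sox10. Dixon's ratio was not computed, since all groups held 3 libraries.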

How the results depend on the processing

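The count of 2818 genes called in DKO against MycKO cells was 2857 with edgeR, 3042 with DESeq2 and 2721 without X and Y genes. Leaving out 1 library gave between 2053 and 3302 genes, with 1028 to 1521 higher and 1025 to 1781 lower. Library totals gave 1504 higher and 1281 lower. With a change of at least 1 on the log2 scale also required, 336 genes (199 higher, 137 lower), 510 interactions (340 positive, 170 negative), 1415 genes in immortalized cells (738 higher, 677 lower) and 53 in MlxKO against WT cells were called. Leaving out 1 library gave 1393 to 2180 interactions (781 to 1149 positive, 612 to 1031 negative), 2578 to 3300 genes in immortalized cells (1348 to 1650 higher, 1230 to 1656 lower, with 1230 without DKO library 14) and 627 to 1466 genes in MlxKO against WT cells. The last count was 627 without the first WT, 630 without the second WT and 738 without the second MlxKO library. Of 136 named genes tested, 115 kept their direction and their side of the threshold under all of the 15 alternatives that gave them a value. Not every gene had a value under every alternative. None reversed, and 18 of 124 called lost the call under at least 1. Pgr was called with edgeR, DESeq2, a pseudocount of 0.1 or without the first DKO library. The cause of these changes was not tested. No paired analysis was possible because the columns carry library numbers that the labels do not tie to replicate numbers. Differences in genes under the floor of 3 reads were not detectable at this depth.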
